A study of Mus musculus with 110 samples.

Results

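Ighd3-2 and a D segment named here the Ighd1-1-like segment (Ighd1-1-like_114719358, after its position) are a pair of less used diversity (D) segments of the mouse immunoglobulin heavy chain locus (Igh) on chromosome 12. Both were described across every full junction library of a V(D)J sequencing study with a bait at JH4. Their junctions were the deposited prey positions within 100 bp of 114687612 (Ighd3-2) and 114719358 (Ighd1-1-like), in the coordinates of the authors' hybrid of mm9 with a further Igh sequence. They numbered 26952 at Ighd3-2 and 37008 at the Ighd1-1-like segment, of 3602400 junctions in 98 libraries. All 27 D segments found in the files held 3177792 junctions and all 150 VH segments held 310918.

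A heavy chain gene is assembled in developing B cells from a VH, a D and a JH segment by the RAG recombinase, which cuts beside recombination signals made of a heptamer, a spacer and a nonamer. A D segment carries such a signal on both sides: the downstream one serves the first step, D to JH, and the upstream one serves the second, VH to the joined DJ. RAG bound at the JH end is known to find its targets as cohesin, of which Rad21 is a subunit, reels the locus past it, and sites bound by CTCF, among them the control region IGCR1 between the VH and D segments, impede that movement. The D segments lie in an array in which Ighd4-1 is nearest to JH and Ighd1-1 is the most used segment near the VH side.

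The junctions were sequenced from pro-B lines transformed with v-Abl and from 129SV bone marrow. All lines were RAG2 deficient, carried Emu-Bcl2, were nucleofected with RAG2 and received 3 uM STI-571, an Abl kinase inhibitor, for 4 days, so their recombination was induced in culture. They were the parental line, a line with an Ostir1 knock-in, a line labelled CTCF-mAID-GFP tagging, the CTCFdegron line (6 replicates per treatment), the Rad21degron line (3) and that line with IGCR1 deleted (4), the first 3 with 4 replicates per treatment. Each was studied with and without indole-3-acetic acid (IAA, 500 uM, begun 6 h before STI-571 and kept with it), which causes breakdown of a degron-tagged protein in cells that have OsTIR1. Bone marrow pro-B cells (6 replicates, genotype wild-type) were sorted as B220+CD43+IgM- per the labels, which give no sort for replicate 1. The treatment label omits IAA for 4 libraries whose title names it, and the title was followed; bone marrow replicates 4 to 6 carry STI-571 in a protocol field. Ages were not given, and no label says that replicates were separate cultures, or that a line is more than 1 clone, so p-values measure only the spread between these samples.

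Replicates, with their a and b libraries summed, held 1263 to 231023 junctions. The Rad21degron groups with IAA were shallowest, at 1263 to 2492 junctions with IGCR1 and 1608 to 2668 without it. A count of 3 junctions was taken as the floor of detection, for counting error only. Read names gave 11 sequencing runs. Identical junctions were frequent in the deeper replicates and PCR reads without molecular identifiers are not independent molecules. By group mean they were most frequent in bone marrow at both segments. Distinct junctions averaged 26.4% there at Ighd3-2 and 16.4% at the Ighd1-1-like segment. In bone marrow replicates 1 to 3, 67957 of 79561, 47910 of 57972 and 78541 of 89909 deposited reads were marked as duplicates. No other full library had such marks, and the marked reads were counted.

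The coding parts and the signals on both sides are shown because the position of the joins, described further on, is read against them. Each is given on the coding strand, 5′ to 3′, from the majority base of the reads, with the coding part in capitals and the upstream and downstream signals, 28 bases each, in lower case. The coordinates are hybrid positions on the minus strand, chr12:114687584-114687655 for Ighd3-2, chr12:114719330-114719402 for the Ighd1-1-like segment, chr12:114734516-114734594 for Ighd1-1 and chr12:114673061-114673127 for Ighd4-1.
Ighd3-2: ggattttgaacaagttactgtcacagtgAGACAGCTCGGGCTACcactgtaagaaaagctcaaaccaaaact
Ighd1-1-like: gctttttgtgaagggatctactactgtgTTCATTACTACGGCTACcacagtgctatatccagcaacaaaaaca
Ighd1-1: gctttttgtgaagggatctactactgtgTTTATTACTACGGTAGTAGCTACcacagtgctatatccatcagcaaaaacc
Ighd4-1: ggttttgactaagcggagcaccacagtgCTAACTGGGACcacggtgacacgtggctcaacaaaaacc

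Ighd3-2 had a coding part of 16 bases. Over 298 aligned bases its prey sequence was 91.3% identical to the mm9 segment of that symbol (annotated as Gm16783, mm9 positions 114686425 to 114686440), and the coding part differed from mm9 by A10G, counted from 1 at the 5′ end with the mm9 base first. The Ighd1-1-like segment had 17 coding bases. Its closest mm9 segment was Ighd1-1 (Gm16947, mm9 positions 114720381 to 114720403), at 77.1% identity over 288 bases, which is too low to give it that symbol. Ighd3-2 was also below the identity asked for a symbol here, and kept the name under which it was chosen. The Ighd1-1-like segment shared all 28 letters of the upstream signal with Ighd1-1, 25 of 28 of the downstream signal, and the first 2 and last 5 coding bases, while Ighd1-1 has 23 coding bases. Between Ighd3-2 and Ighd1-1, 15 of 28 letters were the same in either signal. The upstream heptamer of Ighd3-2 reads CACAGTG on the coding strand, as does that of Ighd4-1, whereas that of Ighd1-1 and the Ighd1-1-like segment reads TACTGTG.

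Counted from JH, Ighd3-2 is number 2 of the 27 D segments, 14523 bp beyond Ighd4-1 and 1405 bp before its next neighbour at position 114689017, closest to Ighd5-5. The Ighd1-1-like segment is number 20, 46269 bp beyond Ighd4-1 and 15186 bp before Ighd1-1. It lies between segments at 114718120 (closest to Ighd5-1) and 114723458 (closest to Ighd2-7). By total junctions the Ighd1-1-like segment ranked 11 and Ighd3-2 ranked 12 among the D segments, against 221500 junctions at Ighd4-1 and 1853255 at Ighd1-1. The neighbours closest to Ighd5-5 and Ighd5-1 held 313 and 413 junctions, and the one closest to Ighd2-7 held 41649.

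In untreated parental cells Ighd3-2 held 0.551%, 0.706%, 0.433% and 0.464% of all junctions in replicates 1 to 4. The Ighd1-1-like segment held 0.676%, 0.767%, 0.613% and 0.644%. Both segments were thus minor ones, and replicate 2 was highest for both. The means were 0.539% ± 0.122 and 0.675% ± 0.0666 (SD, n = 4 each). In this group replicates 1 and 2 lay in another run than replicates 3 and 4, and for both segments the former pair was above the latter.

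Over the 13 groups the mean share of Ighd3-2 was highest in the IGCR1-deleted Rad21degron cells with IAA, at 1.62% ± 0.305 (SD, n = 4), and in bone marrow, at 1.59% ± 0.308 (SD, n = 6). The untreated Rad21degron cells followed at 1.26% ± 0.167 (SD, n = 3), then the Rad21degron cells with IAA at 1.23% ± 1.24 (SD, n = 3). The CTCFdegron means were 1.20% ± 0.301 after IAA and 1.14% ± 0.184 in its absence (SD, n = 6 each), and the untreated IGCR1-deleted cells had 0.842% ± 0.163 (SD, n = 4). The remaining 6 groups, all from the parental, Ostir1 and CTCF-tag lines, lay between 0.467% and 0.683%. The ranges of each pair of neighbours in this order overlapped, and the step exceeded both SDs only from bone marrow to untreated Rad21degron and from untreated CTCFdegron to untreated IGCR1-deleted cells.

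The order of the Ighd1-1-like segment was another one. Bone marrow stood alone at 4.35% ± 0.389 (SD, n = 6), and its lowest replicate, 3.70%, was above every replicate of every line. The Rad21degron cells with IAA were lowest at 0.210% ± 0.0886 (SD, n = 3) and did not overlap the next group, the untreated IGCR1-deleted cells at 0.441% ± 0.0879 (SD, n = 4). The 10 groups between bone marrow and these ran from 0.526% to 0.862%, and each overlapped its neighbours in the order.

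**Figure D1:**
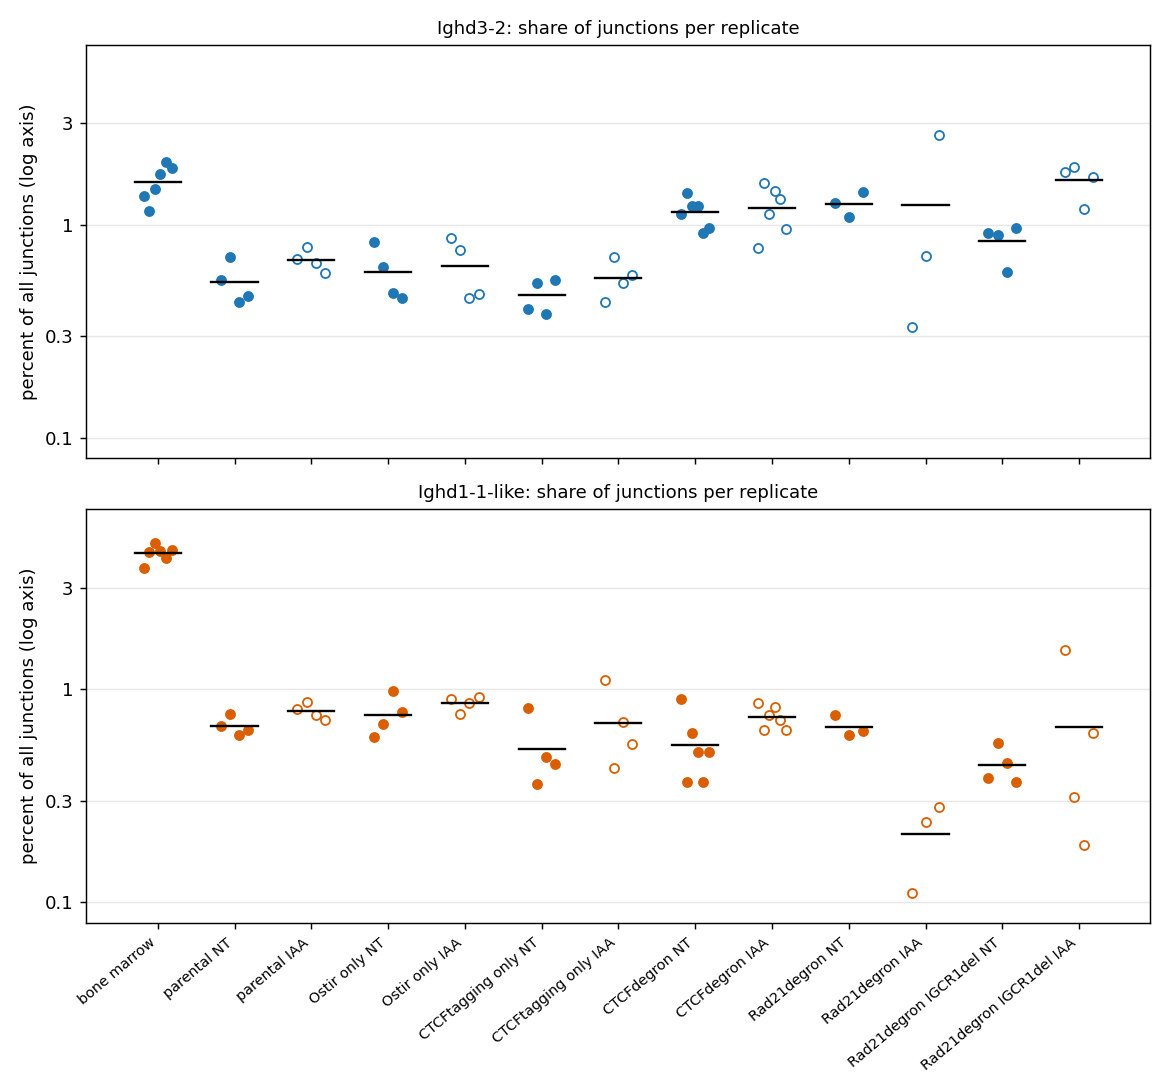
Share of all junctions at Ighd3-2 (top) and at the Ighd1-1-like segment (bottom) in each replicate, on a log axis, by group; open points are groups with IAA and lines are means. Bone marrow replicates of the Ighd1-1-like segment, at 3.70% to 4.85%, lie above all line replicates, while the Ighd3-2 replicates of bone marrow overlap those of the degron lines.

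Bone marrow pro-B cells rearrange the locus in the animal, and set against untreated parental cells they show how far the line differs from normal precursors. Ighd3-2 took 1.15% to 1.964% of junctions in 6 bone marrow replicates (median 1.60%), all above the 4 parental ones. The log2 change was 1.68 ± 0.17 (SE), a 3.21-fold higher share (limma, adjusted p = 3.8e-11). The Ighd1-1-like segment took 3.70% to 4.85% (median 4.45%). Its log2 change was 2.75 ± 0.13 (SE), 6.74-fold (limma, adjusted p = 1.8e-19). In this comparison 98.6% of the 143 segments tested were called, 95.8% as higher, so a call is no mark of these segments. Of the 18 other D segments tested, 13 were higher and 4 lower, with a median log2 change of 1.83 against 5.34 over all segments. Ighd1-1 fell by 2.04 on the log2 scale and Ighd4-1 fell by 0.46 (limma, adjusted p = 1.6e-23 and 2.6e-05).

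The change depended on the scale. D segments held 66.1% ± 5.87 of junctions in bone marrow (SD, n = 6) and 92.6% ± 0.956 in untreated parental cells (SD, n = 4). As a share of D junctions, Ighd3-2 held 2.40% ± 0.410 in marrow and 0.581% ± 0.128 in parental cells, and the Ighd1-1-like segment held 6.61% ± 0.759 and 0.729% ± 0.0675. Neither pair of ranges overlapped (two-sided exact permutation test, p = 0.0095 each, the smallest this design gives; Benjamini-Hochberg 0.052 over 22 tests). With identical junctions counted once, the Ighd3-2 shares of all junctions lay much closer together. They were 1.442% to 1.997% in bone marrow and 1.138% to 1.404% in untreated parental cells, still without overlap. So the size of the difference depended on how identical junctions were counted. Distinct junctions were 26.44% of Ighd3-2 junctions in bone marrow and 60.21% in untreated parental cells. At Ighd1-1 they were 13.78% and 15.25%, and the part of these values in the narrower difference was not tested. The Ighd1-1-like share in bone marrow was then 2.403% to 3.479%. With median-of-ratios scaling, which centres on the VH segments that make up most of the list, the Ighd3-2 change was −0.52 (limma, adjusted p = 0.0071). No run held both groups, so run and group cannot be told apart.

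The ratio of one segment to the other does not depend on the library total. The log2 ratio of Ighd3-2 over the Ighd1-1-like segment was −1.47 ± 0.310 in bone marrow (SD, n = 6) and −0.346 ± 0.178 in untreated parental cells (SD, n = 4). It was 1.12 ± 0.535 in untreated CTCFdegron (SD, n = 6) and 0.909 ± 0.222 in untreated Rad21degron cells (SD, n = 3). So the Ighd1-1-like segment was the more used one in marrow and in parental cells, and Ighd3-2 was the more used one in both untreated degron lines. Ranges did not overlap between each of these 3 groups and the parental one (two-sided exact permutation p = 0.0095, 0.0095 and 0.057, the lowest each design gives; Benjamini-Hochberg 0.052, 0.052 and 0.21 over 11 comparisons, none past 0.05).

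Untreated degron lines were compared with the untreated parental line to ask whether the tagged lines start from the same usage; these comparisons and that of bone marrow share the parental replicates. The CTCFdegron replicates without IAA had 1.13%, 1.42%, 1.22%, 1.22%, 0.913% and 0.970% of junctions at Ighd3-2, all above the parental ones. The log2 change was 1.17 ± 0.28 (SE, limma, adjusted p = 8.7e-05), in a comparison in which 61.8% of 34 segments were called, 50% as higher. For the untreated Rad21degron line, with 1.26%, 1.09% and 1.42%, it was 1.40 ± 0.16 (SE, limma, adjusted p = 1.6e-05), with 73.1% of 26 segments called, 42.3% as higher. Counting identical junctions once on the D scale, this fell to 0.40 (limma, adjusted p = 0.12). The Ighd1-1-like segment gave −0.37 ± 0.29 and 0.05 ± 0.15 (SE) in the same comparisons (limma, adjusted p = 0.26 and 0.76). The 95% interval of the latter ran from −0.27 to 0.37. Ighd4-1, next to Ighd3-2, was higher in both lines, with log2 changes of 0.57 and 1.43 (limma, adjusted p = 0.0046 and 5.1e-06). No run held a degron line and parental cells together.

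Loss of the cohesin subunit was induced with IAA in the Rad21degron line. The Ighd1-1-like segment held 351, 153 and 266 junctions in the untreated replicates (0.755%, 0.611% and 0.635%). With IAA it held 2, 3 and 7 (0.110%, 0.238% and 0.281%). All 3 values with IAA were below all 3 without, and replicates 1 and 2 were at or below the floor of 3 junctions. The segment fell by 1.59 ± 0.40 on the log2 scale (SE, limma, adjusted p = 0.0018), where 63.2% of 19 segments were called, 57.9% as lower. It was lower with IAA within each of the 3 runs that held a pair, by log2 ratios of −2.77, −1.36 and −1.18. With median-of-ratios scaling the change was −0.54 (limma, adjusted p = 0.14). In this comparison Ighd1-1 fell by 3.23 and Ighd4-1 rose by 1.95 (limma, adjusted p = 3.3e-06 each); of the 10 other D segments tested, 1 was higher and 3 lower.

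Ighd3-2, close to JH, gave no such uniform picture. Its untreated replicates had 586, 272 and 595 junctions (1.26%, 1.09% and 1.42%). With IAA there were 6, 9 and 66 (0.331%, 0.713% and 2.65%). Replicates 1 and 2 lay below and replicate 3 above the untreated range. In replicate 3, 18 of the 66 junctions were copies of 1 junction. On the log2 scale the change was −0.61 ± 0.51 (SE, limma, adjusted p = 0.27). Without replicate 3 of the IAA group it was −1.30 (limma, adjusted p = 0.0057), and without replicate 1 it was 0.05.

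The same loss was induced in the line without IGCR1. Ighd3-2 held 0.911%, 0.894%, 0.600% and 0.961% of junctions without IAA and 1.76%, 1.87%, 1.18% and 1.67% with it. All IAA replicates, with 19 to 47 junctions each, were above all untreated ones. The log2 change was 0.93 ± 0.22 (SE), a 1.90-fold higher share (limma, adjusted p = 0.0036; 50% of 18 segments called, 16.7% as higher). It was 0.94 and 0.98 as a log2 ratio of mean shares within the 2 runs. On the scale of D junctions, which were 46.7% ± 2.64 of the total without IAA and 81.7% ± 2.75 with it (SD, n = 4 each), the change was 0.12 (limma, adjusted p = 0.58).

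At the Ighd1-1-like segment of these cells the untreated replicates had 0.385%, 0.561%, 0.450% and 0.367%, and those with IAA had 1.54%, 0.312%, 0.187% and 0.627%. Replicate 1 with IAA stood apart. It held 41 of the 63 junctions of its group, and 34 of those 41 were copies of 1 junction. The fitted log2 change was 0.31 ± 0.48 (SE, limma, adjusted p = 0.64), and −0.28 without that replicate.

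The effect of IAA at the Ighd1-1-like segment differed between the line with and the line without IGCR1, by −1.87 ± 0.69 on the log2 scale (SE, limma interaction, adjusted p = 0.033; 38.9% of 18 segments called, 27.8% as lower). Without replicate 1 of the IGCR1-deleted IAA group it was −1.28 (limma, adjusted p = 0.092). Leaving out any of 5 further replicates gave between −1.89 and −1.54, also not past the threshold: replicate 1 of the Rad21degron IAA group, replicates 1 and 3 of the untreated Rad21degron group, and replicates 1 and 4 of the untreated IGCR1-deleted group. On the D scale the difference was −0.88 (limma, adjusted p = 0.37). For Ighd3-2 it was −1.35 ± 0.56 (SE, limma, adjusted p = 0.055), and −2.22 without Rad21degron IAA replicate 3 (limma, adjusted p = 0.0018). It also passed without untreated Rad21degron replicate 2 or IGCR1-deleted IAA replicate 3, at −1.43 and −1.46 (limma, adjusted p = 0.049 and 0.050).

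Without IAA, the deletion of IGCR1 went with lower shares of both segments among all junctions. Ighd3-2 fell by 0.55 ± 0.15 and the Ighd1-1-like segment fell by 0.62 ± 0.18 (SE, limma, adjusted p = 0.0062 and 0.0079), where 85.0% of 20 segments were called, 55.0% as lower. In the IGCR1-deleted cells VH segments took much of the total, and on the D scale both directions turned: 0.48 for Ighd3-2 (limma, adjusted p = 0.011) and 0.40 for the Ighd1-1-like segment (limma, adjusted p = 0.093). The Ighd3-2 D shares, 1.80% ± 0.342 with the deletion (SD, n = 4) and 1.31% ± 0.177 without it (SD, n = 3), overlapped. They did not pass (two-sided exact permutation p = 0.17, Benjamini-Hochberg 0.29 over 22 tests). With identical junctions also counted once, both directions on the D scale turned back to lower. With IAA, the deleted line against the intact one gave 1.07 ± 0.54 and 1.39 ± 0.74 (SE, limma, adjusted p = 0.17 each; 15.4% of 13 segments called). For Ighd3-2 it was −0.07 without Rad21degron IAA replicate 1, and 1.75 without replicate 3 (limma, adjusted p = 0.016). No run held both lines.

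Loss of CTCF was induced in the CTCFdegron line, with all 12 replicates in 1 run. The Ighd1-1-like segment held 0.899%, 0.366%, 0.627%, 0.510%, 0.367% and 0.506% without IAA and 0.859%, 0.645%, 0.761%, 0.830%, 0.717% and 0.644% with it. The groups overlapped only through untreated replicate 1, the highest of all. The log2 change was 0.53 ± 0.25 (SE, limma, adjusted p = 0.040), where 88.6% of 70 segments were called, 87.1% as higher, and the median log2 change was 2.76. It did not pass the threshold when any of 8 single replicates was left out (0.43 to 0.54), and it was −0.26 with identical junctions counted once (limma, adjusted p = 0.20). Ighd3-2 held 1.13%, 1.42%, 1.22%, 1.22%, 0.913% and 0.970% without IAA and 0.775%, 1.57%, 1.12%, 1.43%, 1.32% and 0.955% with it. These ranges overlapped throughout, and the log2 change was 0.05 ± 0.23 (SE, limma, adjusted p = 0.84), with a 95% interval from −0.40 to 0.50.

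D segments held 93.2% ± 1.93 of junctions in untreated CTCFdegron cells and 70.0% ± 2.99 with IAA (SD, n = 6 each). As a share of D junctions, Ighd3-2 rose with the limma fit on that scale by 0.47 (adjusted p = 0.048). The D shares themselves, 1.70% ± 0.366 with and 1.23% ± 0.198 without IAA (SD, n = 6 each), overlapped and did not pass after adjustment (two-sided exact permutation p = 0.024, Benjamini-Hochberg 0.10 over 22 tests). The Ighd1-1-like D shares, 1.06% ± 0.152 with and 0.588% ± 0.226 without IAA (SD, n = 6 each), also overlapped. They did not pass after adjustment either (two-sided exact permutation p = 0.0065, Benjamini-Hochberg 0.052 over 22 tests). With identical junctions counted once on the scale of all junctions Ighd3-2 fell by 0.71 (limma, adjusted p = 8.0e-04). Distinct junctions were 63.0% of Ighd3-2 junctions without and 67.5% with IAA, against 16.3% and 28.5% at Ighd1-1, and the part of this difference in the change of scale was not tested. With median-of-ratios scaling both segments were lower, by −2.31 and −1.84. Of the 14 other D segments tested, 8 were higher and 1, Ighd1-1, was lower by 1.18; their median was 0.61.

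The effect of IAA was also measured in the parental, Ostir1 and CTCF-tag lines. Parental cells with IAA had 0.692%, 0.783%, 0.660% and 0.595% at Ighd3-2, and replicate 2 without IAA lay inside that range. The log2 change was 0.46 ± 0.14 (SE, limma, adjusted p = 0.035; 28.1% of 32 segments called, 25.0% as higher), and 0.36 to 0.46 with the threshold missed on leaving out any of 6 replicates. The untreated replicates 1 and 2 and the IAA replicates 1 and 2 came from different runs, and within the run that held replicates 3 and 4 of both groups the log2 ratio was 0.48. The Ighd1-1-like segment gave 0.26 ± 0.10 (SE, limma, adjusted p = 0.10). In the Ostir1 line the changes were 0.10 ± 0.26 and 0.19 ± 0.17 (SE, limma, adjusted p = 0.87 and 0.43; 4.35% of 23 segments called). In the CTCF-tag line they were 0.26 ± 0.22 and 0.40 ± 0.31 (SE, limma, adjusted p = 0.9996 each; 0.0% of 74 segments called, with 4 at an unadjusted p under 0.05 and 0 by limma-trend). There the same-numbered replicates deviated together, and with the replicate number as a block the Ighd1-1-like change was 0.40 (limma, adjusted p = 2.2e-04), with all 4 pairs higher with IAA. That pairing was read from these same data, so the blocked p-value is no independent support. The share of all segments called with the block is not given here. The difference in the effect of IAA between the CTCFdegron line and each control line was between −0.39 and −0.05 for Ighd3-2 and between 0.14 and 0.39 for the Ighd1-1-like segment, none past the threshold (limma interaction, adjusted p from 0.22 to 0.91; 68.3%, 65.0% and 65.8% of segments called). On the D scale the Ighd1-1-like difference passed against the parental and the Ostir1 line, at 0.70 and 0.82 (limma, adjusted p = 0.031 and 0.033).

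**Figure D2:**
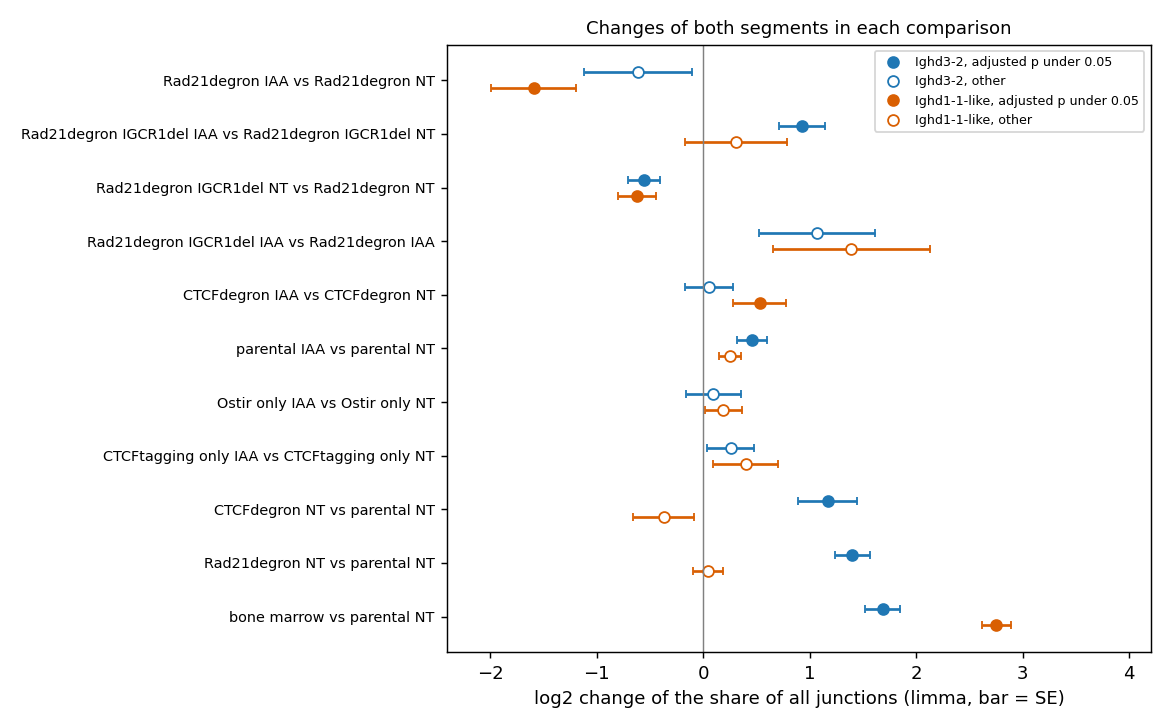
Log2 change of the share of all junctions at Ighd3-2 (blue) and at the Ighd1-1-like segment (orange) in each comparison, from limma, with bars for the SE; filled points passed an adjusted p of 0.05. Both segments pass in bone marrow against parental cells (1.68 and 2.75) and in the untreated IGCR1-deleted against the intact Rad21degron line (−0.55 and −0.62).

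The replicates of the Ostir1 line fell into 2 runs that differed at Ighd3-2. Without IAA, replicates 1 and 2 had 0.831% and 0.630% and replicates 3 and 4 had 0.476% and 0.451%. With IAA the values were 0.866% and 0.756%, then 0.451% and 0.475%. The same replicates differed in the junctions themselves. The bases between bait and prey, in which microhomology counts as negative, averaged 3.73 and 3.43 in untreated replicates 1 and 2 and 0.628 and 0.269 in replicates 3 and 4. The part of the run in the share was not tested.

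Within their segment, joins of both members crowded at the downstream coding end. In the lines, 48.6% of plus-orientation junctions at Ighd3-2 and 49.7% at the Ighd1-1-like segment lay at the single most used position, and 36.4% and 40.8% did in bone marrow. The plus orientation is that of joins which delete the sequence between D and JH. Its group means were 99.2% to 100.0% at Ighd3-2 and 99.7% to 100.0% at the Ighd1-1-like segment. More bases lay between bait and prey in bone marrow: 4.61 ± 0.577 at Ighd3-2 and 3.20 ± 0.198 at the Ighd1-1-like segment (SD, n = 6), against 2.61 ± 0.825 and 1.24 ± 0.748 in untreated parental cells (SD, n = 4). These ranges did not overlap (two-sided exact permutation p = 0.0095 each, the lowest this design can give; after Benjamini-Hochberg 0.15 over 64 tests of junction structure). None of those 64 tests passed after adjustment. The untreated parental bases between bait and prey also split by run. At Ighd3-2 replicates 1 and 2 had 3.289 and 3.365, and replicates 3 and 4, from another run, had 1.843 and 1.96. At the Ighd1-1-like segment these were 2.05 and 1.684, then 0.763 and 0.467. Untreated Rad21degron cells had 3.718 at Ighd3-2 and 2.671 at the Ighd1-1-like segment. The part of the run in the difference from bone marrow was not tested.

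Ighd3-2 had a further site of joining. Of its plus-orientation junctions, 3569, or 13.3%, lay at least 4 bases beyond the coding part, inside or past the upstream heptamer, and 1376 of them, 5.13% of all, lay exactly 23 bases from the most used end, which is the 16 coding bases and the heptamer. In such reads the prey starts on the VH side of the coding part. The share beyond the coding part was 1.22% at the Ighd1-1-like segment, 2.64% at Ighd4-1 and 1.12% at Ighd1-1. This measure was added after the data were seen.

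**Figure D3:**
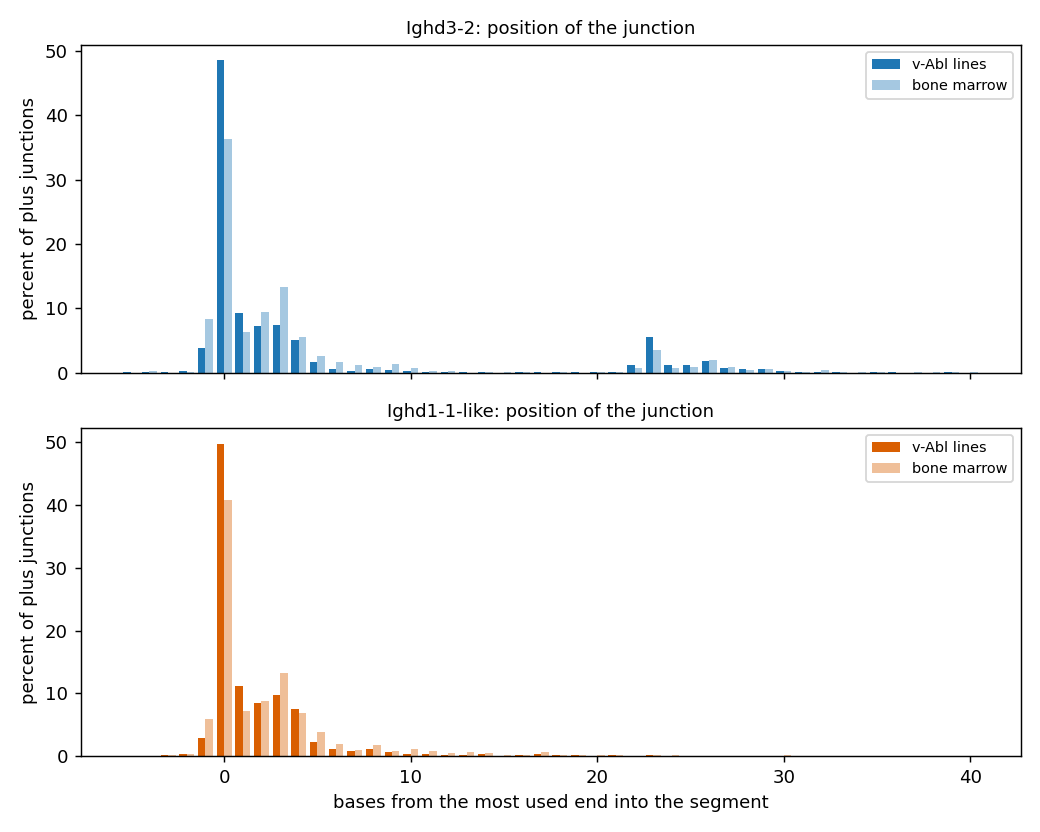
Percent of plus-orientation junctions at each distance from the most used end, counted into the segment, for Ighd3-2 (top) and the Ighd1-1-like segment (bottom), in the lines and in bone marrow. Both peak at 0, and Ighd3-2 has a second peak at 23 bases, with 5.52% of junctions in the lines and 3.56% in bone marrow.

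The reads at this upstream end carried other sequence in front of the prey. They had 10.1 bases between bait and prey on average, against 2.25 at the coding end. Of the 2668 with 7 or more such bases, 1491 (55.9%) held a 7-base match to the coding part of Ighd4-1, the segment between Ighd3-2 and JH. At the coding end of Ighd3-2, 0 of 1428 such reads held one. At the upstream ends of Ighd1-1 and the Ighd1-1-like segment, 0.649% of 3700 and 0 of 122 did. Such matches also stood in front of joins at the coding ends of other segments, in 5256 of 70156 such reads (7.49%) at Ighd1-1 and 50 of 2570 (1.95%) at the Ighd1-1-like segment. In those 1491 reads the JH4 bait was followed by Ighd4-1 sequence and then by the flank of Ighd3-2.

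Upstream-end joins were found in bone marrow, at 11.6% ± 2.56 of Ighd3-2 plus junctions (SD, n = 6), and in untreated parental cells, at 13.1% ± 2.23 (SD, n = 4). They were 16.4% ± 2.35 in untreated CTCFdegron cells and 11.6% ± 3.17 with IAA (SD, n = 6 each; two-sided exact permutation p = 0.019, Benjamini-Hochberg 0.24 over the 26 tests of added measures). In the Rad21degron line they were 9.99% ± 1.77 without IAA (SD, n = 3) and 0 of 81 with it, which allows a share of up to 3.70%. That limit counts every read, and only 38 of the 81 junctions were distinct, so it is too low for independent joins. In the IGCR1-deleted line upstream-end joins were 59 of 430 without IAA and 1 of 140 with it, where 72 of the 140 were distinct. Both groups with IAA had a replicate under 20 junctions and were not tested.

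**Figure D4:**
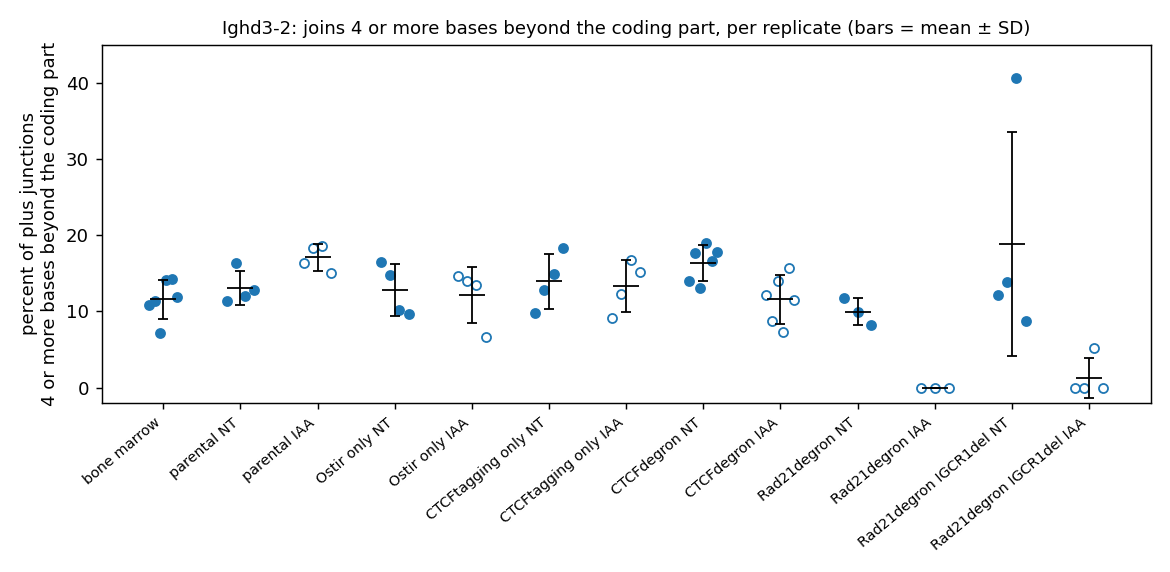
Percent of Ighd3-2 plus-orientation junctions at least 4 bases beyond the coding part in each replicate, by group, with mean ± SD; open points are groups with IAA. The Rad21degron replicates with IAA are at 0, and untreated replicate 3 of the IGCR1-deleted line stands at 40.6%, from 13 of 32 junctions.

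Joins of a VH segment to a DJ keep the D inside the read, so the use of both segments in complete V(D)J joins was read from the bases between bait and VH prey. This measure too was added after the data were seen. A D segment was recognised by a 9-base match unique to its coding part; 146455 of 307932 plus-orientation VH junctions held exactly 1, of which 4401 held Ighd3-2 and 6996 the Ighd1-1-like segment. Searches with the complement of the same letters gave 3 and 16 matches. Longer coding parts hold more such matches, and the part of length in these shares was not tested.

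In bone marrow 9.23% ± 1.59 of these VH joins held the Ighd1-1-like segment and 3.26% ± 0.519 held Ighd3-2 (SD, n = 6). In untreated parental cells the shares were 1.61% ± 0.377 and 2.94% ± 1.23 (SD, n = 4). The ranges of the Ighd1-1-like segment did not overlap (two-sided exact permutation p = 0.0095, the lowest this design can give; after Benjamini-Hochberg 0.24), and those of Ighd3-2 did (p = 0.60 by the same exact test). Untreated IGCR1-deleted cells had Ighd3-2 in 5.90% ± 0.593 (SD, n = 4), all above the 2.13% ± 0.899 of the intact Rad21degron line (SD, n = 3; exact permutation p = 0.057, the lowest this design can give; after Benjamini-Hochberg 0.25). In the intact line only 6 of 364, 3 of 190 and 11 of 347 such joins, replicate 2 at the floor, held Ighd3-2. With IAA, 0 of 206 such joins of the IGCR1-deleted cells held it, which allows up to 1.46% (against the untreated cells, exact permutation p = 0.029, the lowest this design can give; after Benjamini-Hochberg 0.24). That limit counts every read, and the distinct joins numbered 32, 37, 24 and 27 in replicates 1 to 4, so it is too low for independent joins.

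Both segments took a larger share of the D segments recognised in VH joins than of the junctions at D segments. The 2 shares have unlike bases, as only 47.6% of VH junctions held exactly 1 recognised D. Stretches common to several coding parts, and little-used D segments, could not be recognised there, while D junctions count all 27 segments. The part of this in the difference was not tested. In the 11 groups with at least 500 recognised joins, the Ighd1-1-like share was higher in VH joins in 49 of 49 replicates and the Ighd3-2 share in 45 of 49. The share of Ighd4-1, with 11 coding bases, was higher in 0 of 49, and that of Ighd1-1, with 23, in 10 of 49. In untreated parental cells Ighd3-2 stood at 0.581% of D junctions and 2.94% of recognised VH joins, and Ighd1-1 at 65.6% and 38.5%. The parental Ighd3-2 share of VH joins split by run. It was 1.773% and 2.013% in replicates 1 and 2, from 5 and 6 joins, and 3.719% and 4.255% in replicates 3 and 4.

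**Figure D5:**
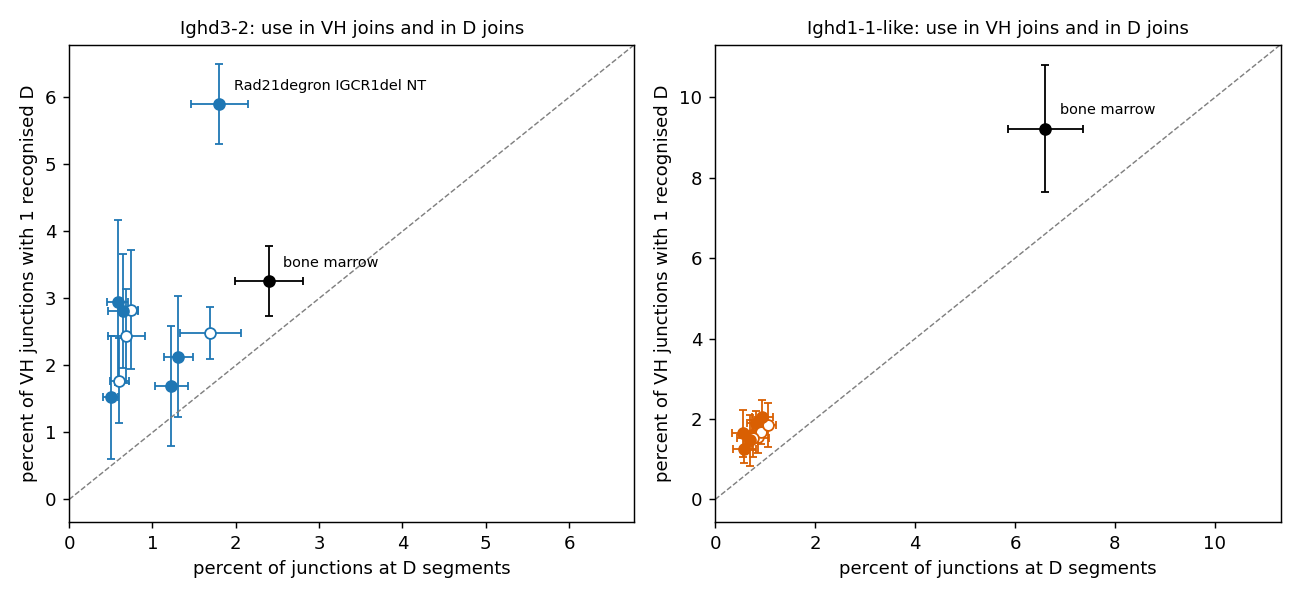
Share of each segment among VH junctions with 1 recognised D against its share of junctions at D segments, group means ± SD over replicates, for groups with at least 500 such VH junctions; bone marrow is black, open points are groups with IAA and the dashed line marks equal shares. Points lie above the line, with untreated IGCR1-deleted cells at 1.80% and 5.90% for Ighd3-2 and bone marrow at 6.61% and 9.23% for the Ighd1-1-like segment.

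The a and b libraries of a replicate, whose difference the labels do not explain, were set side by side after the data were seen. The Ighd3-2 share was higher in the b library in 37 of 42 replicates, with means of 0.795% in a and 0.895% in b, and the Ighd1-1-like share in 31 of 42, with 0.641% and 0.674%. The IGCR1-deleted groups had b libraries only, while the Rad21degron groups with IGCR1 had both.

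Across the 13 groups the log2 shares of the 2 segments had a Pearson r of 0.14, and −0.32 without bone marrow, given as a description over groups that share runs and depth. Among the 144 other segments tested in any comparison, those most like Ighd3-2 were the VH segments at 116038148 (closest to Ighv6-6), Ighv6-3 and that at 116374706 (closest to Ighv1-22), with r of 0.89, 0.86 and 0.85; Ighd4-1 stood at 0.67 and Ighd1-1 at −0.71. Without bone marrow the 3 VH segments stood at 0.89, 0.86 and 0.85 and Ighd4-1 at 0.88, so they did not rank above it as a group. The 3 VH segments held only 121, 125 and 123 plus-orientation junctions over all full libraries. Their group shares thus rest on few counts, and the part of depth in their r was not tested. Those most like the Ighd1-1-like segment were D segments at 114705399 (closest to Ighd2-8) and 114700407 (closest to Ighd2-4) and Ighd2-4, with r of 0.85, 0.82 and 0.82. Without bone marrow these were 0.57, 0.53 and 0.41, so this likeness rests in part on that group.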

How the data were processed

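The deposited files list 1 junction read per line, made by linear-amplification sequencing of genomic DNA from a JH4 bait; positions and alignment bounds carry no unit of expression. Per the submitters' processing notes reads were aligned with Bowtie2, and per the labels to a hybrid of mm9, whose sequence was not used here; version and filters are not given in the sources used here. All reads of 98 libraries were counted, and 12 off-target lists were not used. Library positions were shifted by up to 3 bases so that the same prey sequence lay at the same place (a libraries −3, b libraries 3, against bone marrow). Of 249 peaks of junctions, 177 matched a V or D segment annotated in mm9 (blastn 2.17.0), symbols coming from the RefSeq gene table's synonyms. A junction was assigned to the nearest segment within 100 bp. Tallies, a and b summed, were compared by limma 3.58.1 under R 4.3.3 (voom weights, pseudocount 0.5, mean of at least 10 junctions per replicate, all deposited junctions as the scale, Benjamini-Hochberg under 0.05 over all segments tested), after a check on simulated data. Other measures used two-sided exact permutation tests; for junction structure and joins beyond the coding part, groups with under 20 junctions in a replicate got none, while ratios and D shares were tested in all groups. The segments, lists and tests were chosen with earlier results of these data known. Same-numbered replicates deviated together in the Ostir1 line (r 0.66 to 0.87) and the CTCF-tag line (r 0.50 to 0.85), a pairing read from the data. Named were both segments, Ighd4-1, Ighd1-1, the neighbours of each segment, and the 3 segments most like each by Pearson r over group shares; other D segments were counted. No library was dropped. Alternatives were other scales, no minimum, identical junctions once, other windows, plus orientation, 1 library letter, limma-trend, a replicate block and each replicate left out.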

Additional observations from a re-analysis of the deposited data

Results flagged for a closer look

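The effect of IAA on the Ighd1-1-like segment differed between the Rad21degron line and its IGCR1-deleted form by −1.87 on the log2 scale (limma interaction, adjusted p = 0.033). Replicates that stood apart from the rest of their group were 6 of 54 sets of replicates examined, and chance alone marks about 1 in 20 groups. For joins of Ighd3-2 beyond its coding part they were the highest untreated replicate of the IGCR1-deleted line (40.6%, 13 of 32 junctions), the highest IAA replicate of that line (5.26%, 1 of 19 junctions) and the lowest IAA replicate of the Ostir1 line (6.64%). For D segments inside VH joins they were the lowest IAA replicate of the Ostir1 line (Ighd3-2, 1.39%), the highest untreated replicate of the CTCF-tag line (Ighd3-2, 2.90%) and the highest IAA replicate of the IGCR1-deleted line (Ighd1-1-like, 8.70%, 4 of 46 joins). Of the outliers, 4 lie in groups with IAA. None of the shares of all junctions was marked by this measure, also not the Ighd1-1-like share of 1.54% in replicate 1 of the IGCR1-deleted IAA group, where the others had 0.187% to 0.627%.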

How the results depend on the processing

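Of 412 values of log2 changes, ratios and D shares recomputed under an alternative other than leaving out a replicate, 338 kept their direction and their side of the threshold; windows of 50 bp and 200 bp, plus orientation only, the mean of the a and b shares and a pseudocount of 0.1 changed no call or direction. The others follow as log2 changes unless said otherwise, and the cause was not tested. On the scale of D junctions, Ighd3-2 gave 0.47 for IAA in CTCFdegron, 0.12 for IAA in IGCR1-deleted cells, 0.48 for the deletion of IGCR1 without IAA, and 0.21, 0.39 and 0.016 for CTCFdegron minus CTCF-tag, Ostir1 and parental. The Ighd1-1-like segment gave −0.0082 for Rad21degron against parental, −0.48 for IAA in IGCR1-deleted cells, 0.40 for the deletion, 0.82 and 0.70 for CTCFdegron minus Ostir1 and parental, and −0.88 for Rad21degron minus its deleted form. With median-of-ratios scaling, Ighd3-2 gave −0.52 for bone marrow, −2.31 for IAA in CTCFdegron, 0.60 in Rad21degron, 0.27 in parental cells, −0.11 for the deletion, and −2.44, −0.98 and −1.21 for CTCFdegron minus CTCF-tag, Ostir1 and parental. The Ighd1-1-like segment gave −1.84, −0.54, −0.43 (CTCFdegron against parental), −0.0060 (Rad21degron against parental), −0.19 (deletion), −2.08, −0.57 and −0.58 (the 3 CTCFdegron differences) and −0.87 (Rad21degron minus its deleted form).

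With identical junctions counted once, Ighd3-2 gave −0.71 for IAA in CTCFdegron, −1.21 in Rad21degron, 0.30 in parental cells, −0.75, −0.77 and −0.997 for the 3 CTCFdegron differences and −1.95 for Rad21degron minus its deleted form. The Ighd1-1-like segment gave −0.26 in CTCFdegron, −0.17 in IGCR1-deleted cells, and −0.42, −0.41 and −0.44 for the 3 differences. The log2 ratio of the segments became 0.33 for the deletion with IAA. D shares, in percentage points, became −0.99 (Rad21degron IAA), −0.0086 (deletion), −0.21 (CTCFdegron IAA) and −0.031 (Ostir1 IAA) for Ighd3-2, and −0.13 (deletion) for the Ighd1-1-like segment. Directions of junction structure that had not passed their tests turned too. The plus orientation became 0.12 points in CTCF-tag (Ighd3-2) and 0.044 in Rad21degron against parental (Ighd1-1-like). The bases between bait and prey became −0.17 for the deletion and 0.10 in Ostir1 (Ighd3-2) and −0.16 in CTCF-tag (Ighd1-1-like). The mean distance from the end became −1.02 bases in bone marrow (Ighd3-2) and 0.050 in Ostir1 (Ighd1-1-like). The share in VH joins became −0.30 points with IAA in IGCR1-deleted cells (Ighd1-1-like). With both this and the D scale, chosen after seeing the data, Ighd3-2 gave −0.10 (CTCFdegron IAA), −0.90 (Rad21degron IAA), 0.40 (Rad21degron against parental), 1.02 (deletion with IAA), 0.31 (IGCR1-deleted IAA), −0.057 (deletion) and 0.25 (parental IAA), and the Ighd1-1-like segment gave 0.34, −0.39 (Rad21degron against parental), −0.69 (IGCR1-deleted IAA), −0.11 (deletion) and −0.98 (Rad21degron minus its deleted form).

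In a libraries alone, IAA in CTCFdegron gave 0.47 for the Ighd1-1-like segment and −0.0036 for Ighd3-2. In b libraries alone, CTCFdegron minus Ostir1 gave 0.0046 for Ighd3-2. Limma-trend gave, for the Ighd1-1-like segment, 0.51 (CTCFdegron IAA), −0.018 (Rad21degron against parental) and −1.81 (Rad21degron minus its deleted form), and 0.36 for Ighd3-2 (parental IAA). With no minimum of junctions these were 0.53 (CTCFdegron IAA), −0.62 (deletion), −1.86 (Rad21degron minus its deleted form) and 0.47 (parental IAA, Ighd3-2).

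With the replicate number as a block, the pairing gave 0.40 for the Ighd1-1-like segment in CTCF-tag (limma, adjusted p = 2.2e-04) and −0.014 for Rad21degron against parental, and changed no other limma call. The pairing in CTCF-tag was itself read from these data. In CTCFdegron, whose numbers did not pair the samples, an exact sign-flip permutation test over 6 pairs gave −0.47 for the log2 ratio and 0.48 points for the Ighd1-1-like D share (p = 0.031 each, the smallest possible, before adjustment). That test was not run with 3 or 4 pairs.

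Leaving out single replicates changed a call or direction in these ranges. For Ighd3-2 they were −0.033 to 0.16 (CTCFdegron IAA), −0.069 to 0.26 (Ostir1 IAA), −1.30 to 0.047 (Rad21degron IAA), −0.073 to 1.75 (deletion with IAA), −0.20 to 0.12 (CTCFdegron minus Ostir1), −2.22 to −0.58 (Rad21degron minus its deleted form) and 0.36 to 0.54 (parental IAA). For the Ighd1-1-like segment they were 0.43 to 0.67 (CTCFdegron IAA), −0.058 to 0.097 (Rad21degron against parental), −0.28 to 0.72 (IGCR1-deleted IAA), −0.078 to 0.39 (CTCFdegron minus CTCF-tag) and −2.24 to −1.28 (Rad21degron minus its deleted form). Depth limits the Rad21degron groups with IAA most, where the Ighd1-1-like segment rests on 12 junctions with and 63 without IGCR1.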
